A study of Homo sapiens with 4 samples.

Results

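The MYC, MAX and MXD network is a set of 10 genes that encode MYC and its paralogs MYCN and MYCL, their common partner MAX, and the repressors MXD1, MXD3, MXD4, MXI1, MNT and MGA that compete with MYC for MAX. The members were taken by name, and all 10 were found among the 64252 gene IDs of the count table. The RNA came from J.gamma1, a human line derived from the Jurkat line of T-cell acute lymphoblastic leukaemia (T-ALL) and known for its loss of the signalling enzyme PLCG1. Cells had been cultured for 48 h with 10 µM FB23-2, a small-molecule inhibitor of the RNA demethylase FTO, or with DMSO vehicle at under 0.1%, with 2 biological replicates in each group. All libraries come from 1 cell line, so the replicates are cultures and not patients. The study asked which transcripts FB23-2 changes, and its title names MYC.

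MYC, MYCN and MYCL carry a basic helix-loop-helix leucine zipper and bind DNA as dimers with MAX, mostly at the E-box CACGTG, where they recruit acetyltransferase complexes. MXD proteins, MXI1 and MNT also dimerise with MAX and bind the same sites, but bring in the SIN3 corepressor and its histone deacetylases. MGA, the largest member, joins MAX to a Polycomb complex. In T-ALL, MYC is known as a main target of NOTCH1 signalling, and MXD genes are known for their expression in cells that leave the cell cycle.

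The direction of change set the MYC paralogs apart from the MXD genes and MXI1, but not from all repressors. With FB23-2, MYC, MYCN and MYCL fell, the repressor genes MXD1, MXD3, MXD4 and MXI1 rose, and MGA fell by a small amount, while MAX and MNT did not pass the test. That made 8 of 10 members changed, 4 higher and 4 lower (edgeR quasi-likelihood test, adjusted p under 0.05 over all tested genes). Across the 18817 tested genes 42.1% were changed, 21.8% higher and 20.3% lower, and among the 11851 at a mean of 5 CPM (counts scaled to a common library total) or more it was 56.6%, 30.1% higher and 26.5% lower. Levels are given as CPM after TMM scaling, a correction for library composition, and changes as log2 fold changes, FB23-2 over control, each with a standard error (SE). Bulk RNA cannot tell fewer cells with a transcript from less of it per cell, and CPM are shares of a library, so a change in total RNA per cell was not measured.

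**Figure D1:**
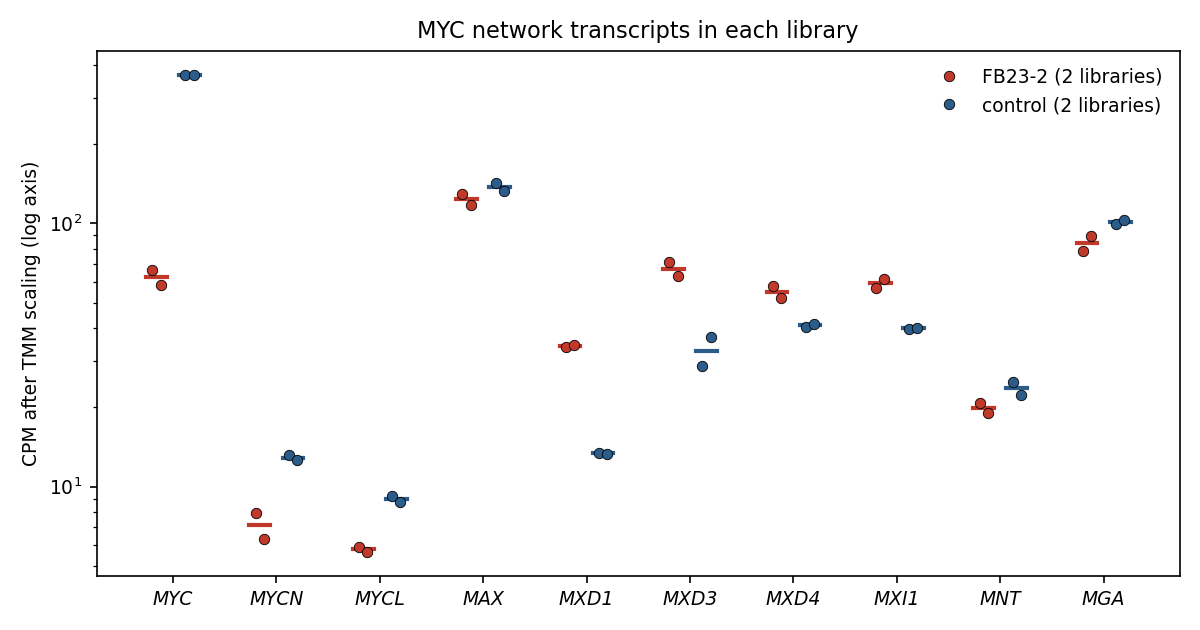
CPM after TMM scaling on a log axis for each member, with 1 point per library and a bar at the group mean (2 libraries per group, FB23-2 red, control blue). MYC was lower in both FB23-2 libraries than in either control library. MXD1, MXD3, MXD4 and MXI1 were higher in both FB23-2 libraries than in either control library. The groups of the other members, MAX and MNT among them, did not overlap either, a pattern that 70.8% of all tested genes shared.

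Start sites of the 4 repressor genes that rose are shown with that of MNT, a repressor that did not pass, to set the sequence context of members that moved together beside one that did not. The windows are RefSeq's for GRCh38.p14, from 250 bases before to 50 bases after an annotated start, 5′ to 3′ on the strand of the gene. Capitals mark CACGTG, the canonical E-box, and TGTTTAC or its reverse complement GTAAACA, the core of FOXO sites. RefSeq gave 14 such windows for the members other than MYC, and MXI1 and MGA have 3 each.
MXD1, chr2:69914859-69915158, + strand: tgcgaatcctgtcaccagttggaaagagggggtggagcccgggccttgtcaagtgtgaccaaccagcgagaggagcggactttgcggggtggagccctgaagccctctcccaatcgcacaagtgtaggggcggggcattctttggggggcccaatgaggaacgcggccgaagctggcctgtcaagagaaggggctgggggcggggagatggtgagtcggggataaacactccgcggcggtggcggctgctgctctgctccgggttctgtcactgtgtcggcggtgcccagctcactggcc
MXD3, chr5:177312703-177313002, - strand: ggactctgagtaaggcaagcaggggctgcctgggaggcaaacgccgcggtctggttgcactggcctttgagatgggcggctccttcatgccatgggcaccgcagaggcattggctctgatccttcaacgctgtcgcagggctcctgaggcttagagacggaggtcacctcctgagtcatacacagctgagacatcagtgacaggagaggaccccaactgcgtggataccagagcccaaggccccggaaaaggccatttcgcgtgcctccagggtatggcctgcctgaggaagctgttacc
MXD4, chr4:2262060-2262359, - strand: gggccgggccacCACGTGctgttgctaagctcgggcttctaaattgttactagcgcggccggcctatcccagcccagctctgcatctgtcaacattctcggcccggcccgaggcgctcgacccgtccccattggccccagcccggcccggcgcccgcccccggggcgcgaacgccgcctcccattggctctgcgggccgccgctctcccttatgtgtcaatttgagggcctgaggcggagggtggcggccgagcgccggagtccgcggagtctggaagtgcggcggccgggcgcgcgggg
MXI1, chr10:110209981-110210280, + strand: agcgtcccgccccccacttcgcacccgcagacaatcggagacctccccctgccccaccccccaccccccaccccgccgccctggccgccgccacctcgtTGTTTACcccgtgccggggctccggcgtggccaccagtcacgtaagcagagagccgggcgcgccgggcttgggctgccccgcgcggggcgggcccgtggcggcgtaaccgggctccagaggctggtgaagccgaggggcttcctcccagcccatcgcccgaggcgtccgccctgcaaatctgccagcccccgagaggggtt
MXI1, chr10:110225746-110226045, + strand: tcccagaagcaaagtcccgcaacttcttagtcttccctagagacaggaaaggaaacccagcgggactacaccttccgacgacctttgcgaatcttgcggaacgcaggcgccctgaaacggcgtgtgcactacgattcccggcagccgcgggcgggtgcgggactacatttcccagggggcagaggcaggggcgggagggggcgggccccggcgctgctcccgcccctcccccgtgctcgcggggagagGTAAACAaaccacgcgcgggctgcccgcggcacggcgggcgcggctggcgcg
MNT, chr17:2401011-2401310, - strand: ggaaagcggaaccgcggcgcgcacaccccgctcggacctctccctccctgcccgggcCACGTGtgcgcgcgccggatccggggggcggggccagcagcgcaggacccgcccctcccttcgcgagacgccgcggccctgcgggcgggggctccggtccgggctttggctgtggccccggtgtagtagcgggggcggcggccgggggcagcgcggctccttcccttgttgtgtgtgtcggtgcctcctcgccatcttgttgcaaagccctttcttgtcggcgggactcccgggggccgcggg

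The E-box was found in the windows of MXD4, at base -238 from the start, and MNT, at -193, and in 7.26% of all 35116 windows of this kind. MXI1 held the FOXO core in 2 of its 3 windows, those shown, at -151 and at -2, against 3.42% of all windows. Both lie inside the gene's GENCODE span. The MXI1 window not shown, chr10:110207355-110207654, covers the gene's first base and held none. The E2F sequence TTTGGCGC lay in 1 window each of MYCN and MGA, against 0.652% of all. The MXD1 and MXD3 windows held none of the 3, and the MXD1 window lies inside the gene's GENCODE span, not at its first base. All 3 motifs were searched on both strands and were chosen after the sequences had been seen. They are matches of letters only, and the counts cannot tell from which start a transcript came. An E-box was therefore present both in a member that rose, MXD4, and in one that did not pass, MNT.

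MYC (ENSG00000136997, chromosome 8, 127735434 to 127741434 of hg38) had 2542 and 2031 counts in the FB23-2 libraries, against 8851 and 12594 in the control libraries. That is 66.5 and 58.5 CPM with FB23-2, against 367 and 366 CPM in control. The control libraries were almost equal, and both FB23-2 libraries were far below them. This was a log2 fold change of -2.55 ± 0.06 (SE; edgeR adjusted p = 3.75e-08), a 5.85-fold lower level, and only 97 of the 18817 tested genes had a lower value.

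Both paralogs were scarce and fell less. MYCN (ENSG00000134323, chromosome 2, 15940564 to 15947007), a driver of neuroblastoma, stood at 7.96 and 6.31 CPM with FB23-2, against 13.2 and 12.6 CPM in control (-0.84 ± 0.15, edgeR adjusted p = 0.00143). MYCL (ENSG00000116990, chromosome 1, 39895426 to 39902256), first known from lung cancer, stood at 5.91 and 5.65 CPM with FB23-2, against 9.17 and 8.74 CPM in control (-0.62 ± 0.15, edgeR adjusted p = 0.0075). Neither gene's groups overlapped, a pattern that 70.8% of all tested genes shared. Their 95% intervals, -1.17 to -0.51 for MYCN and -0.96 to -0.29 for MYCL, lay above that of MYC, -2.68 to -2.42, although the difference between paralogs was not tested. They passed under all alternatives but the test against a 1.5-fold change.

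MAX (ENSG00000125952, chromosome 14, 65006174 to 65102695), the common dimerisation partner of the other members, had 129 and 117 CPM with FB23-2, against 142 and 133 CPM in the control libraries. Both FB23-2 libraries were below both control libraries, but the gap between the groups was smaller than the spread within either. Its log2 fold change of -0.15 ± 0.06, with a 95% interval of -0.29 to -0.02, missed the threshold (edgeR adjusted p = 0.0645). It passed with upper quartile scaling (0.0244), a minimum count of 50 (0.0317), a replicate block (0.0153) and without FB23-2 replicate 1 (0.0193), and its adjusted p lay between 0.0153 and 1 across the alternatives.

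Of the repressors, MXD1 (ENSG00000059728, chromosome 2, 69897688 to 69942945), a MAX partner known to rise as cells differentiate, changed most. It had 1291 and 1192 counts in the FB23-2 libraries, against 324 and 459 in control, or 33.8 and 34.4 CPM with FB23-2, against 13.4 and 13.3 CPM in control. Replicates were close in both groups, and the groups did not overlap. This was a log2 fold change of 1.35 ± 0.09 (edgeR adjusted p = 4.45e-06), a 2.55-fold higher level. The MXD1 gene model shares 3.7% of its exon bases with SNRNP27 on the same strand. SNRNP27 rose as well, to 83.0 and 88.9 CPM with FB23-2, against 59.2 and 59.8 CPM in control (0.53 ± 0.06). The effect of shared reads on the MXD1 change was not tested.

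MXD3 (ENSG00000213347, chromosome 5, 177301461 to 177312757), the family member known for expression in dividing cells in mice, had 71.0 and 63.1 CPM with FB23-2, against 28.6 and 37.0 CPM in control. The groups stood well apart, although MXD3 varied more between control libraries than the other members that rose. Its log2 fold change was 1.01 ± 0.12 (edgeR adjusted p = 7.68e-04), 0.84 without control replicate 1 and 1.23 without control replicate 2. The MXD3 gene model shares exon bases with its neighbours: 18.0% with RAB24 on the same strand and 22.5% with PRELID1 on the opposite strand. RAB24 rose as well, to 28.9 and 25.4 CPM with FB23-2, against 19.8 and 22.6 CPM in control (0.35 ± 0.10), but with FB23-2 replicate 1 left out its edgeR adjusted p was 0.182, and with control replicate 1 left out 0.172 (alternatives from 0.013 to 1). PRELID1 fell (-0.57 ± 0.07). How the authors assigned shared reads is not given in the sources used here, so the size of the MXD3 change is uncertain.

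MXI1 (ENSG00000119950, chromosome 10, 110207605 to 110287365), also called MXD2, had 56.8 and 61.3 CPM with FB23-2, against 39.8 and 40.0 CPM in control (0.57 ± 0.07, edgeR adjusted p = 1.51e-04). MXD4 (ENSG00000123933, chromosome 4, 2247432 to 2262294) had 58.0 and 52.0 CPM with FB23-2, against 40.5 and 41.5 CPM in control (0.42 ± 0.07, edgeR adjusted p = 0.00138). Both rose by less than 1.5-fold, with all FB23-2 libraries above all control libraries. Among all tested genes, 571 passed with a rise of 2-fold or more (3.03%) and 840 with a fall of 2-fold or more (4.46%). MXD1 and MXD3 were in the first set and MYC in the second.

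The remaining repressors did not follow the MXD genes. MNT (ENSG00000070444, chromosome 17, 2384060 to 2401118), known as the broadly expressed MAX partner, had 20.8 and 19.0 CPM with FB23-2, against 25.0 and 22.3 CPM in control. The difference, -0.24 ± 0.10 on the log2 scale, missed the threshold (edgeR adjusted p = 0.0815, 95% interval -0.47 to -0.02), and passed only with upper quartile scaling among the 14 alternatives (0.046, the others reaching 1). MGA (ENSG00000174197, chromosome 15, 41621224 to 41773081) had 78.8 and 89.8 CPM with FB23-2, against 99.1 and 103 CPM in control, and fell by 0.26 ± 0.07 on the log2 scale (edgeR adjusted p = 0.0107). Without control replicate 2 the adjusted p of MGA was 0.0982, and the alternatives spanned 0.00269 to 1. Both intervals lay below 0, whereas those of the 4 MXD family genes lay above it.

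**Figure D2:**
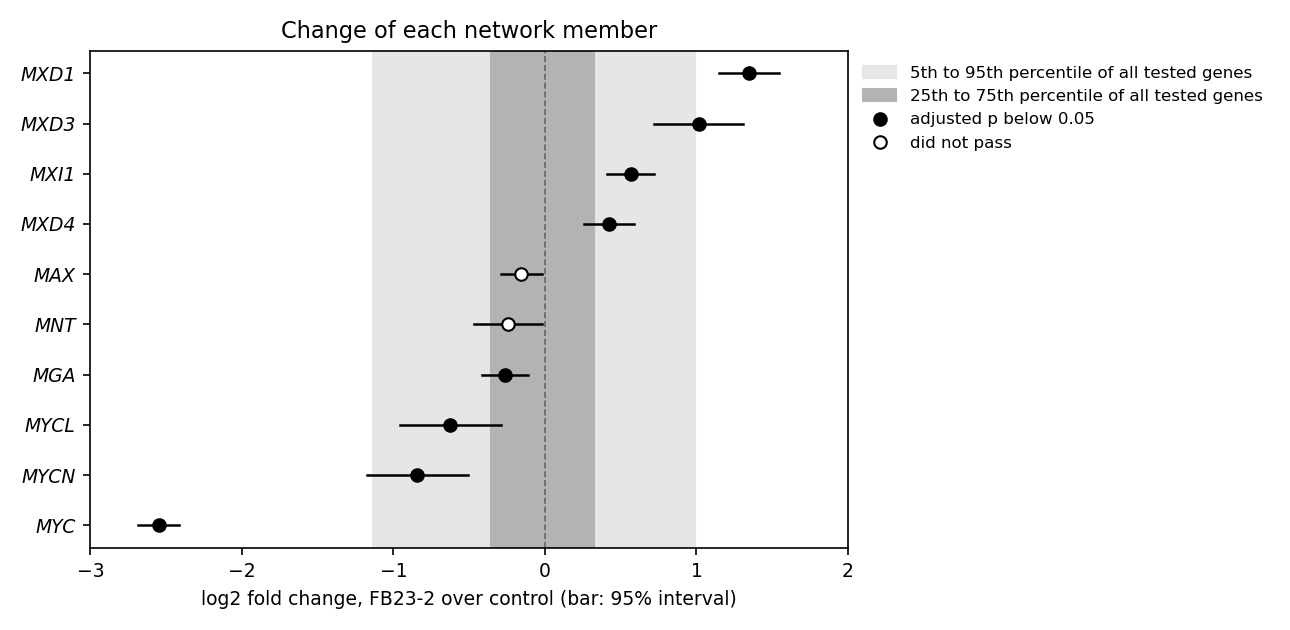
Log2 fold change of FB23-2 over control for each member with its 95% interval, filled where the adjusted p was below 0.05, over the 5th to 95th and 25th to 75th percentiles of all 18817 tested genes. MYC (-2.55) lies below and MXD1 (1.35) and MXD3 (1.01) above the 5th to 95th percentile range of -1.13 to 0.99, and MAX, MNT and MGA lie within the inner range of -0.36 to 0.32.

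Levels of different genes can be set side by side only per length. Per kilobase of annotated exon, MAX led the order with FB23-2, at 29.2 and 26.4 CPM per kb, and MYC followed at 22.2 and 19.5 CPM per kb. In control, MYC led at 122 and 122 CPM per kb and MAX followed at 32.1 and 30.0 CPM per kb. MYC thus stood below MAX in both FB23-2 libraries and above it in both control libraries, with each length measure tried. Next with FB23-2 came MXD3 and MXI1, at means of 13.0 and 12.8 CPM per kb, whose ranges overlapped, then MXD4 at 7.79, MXD1 at 5.37 and MGA at 4.78. In control, MXI1 at a mean of 8.66 CPM per kb was followed by MXD3 at 6.37, MXD4 at 5.81 and MGA at 5.73, and each of these last 3 overlapped its neighbour. MYCN, MNT and MYCL were among the lowest in both groups, at means of 2.74, 2.28 and 1.14 CPM per kb with FB23-2, against 4.95, 2.71 and 1.77 in control. MXD1, at a mean of 2.11 CPM per kb in control, stood above MGA in the FB23-2 order and below MNT in the control order. Beyond MYC against MAX, the order depends on the length used. With FB23-2, MYC ranked 3 by longest transcript, where MXD3 at 29.4 CPM per kb stood above MYC at 26.4, and 6 by coding length, where MXI1 at 61.7, MXD4 at 59.6, MXD3 at 57.6 and MXD1 at 49.4 CPM per kb stood above MYC at 27.8. By coding length MXD1 in control, at 19.4 CPM per kb, was above MNT at 13.6.

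Within a library, scaling has no part in the ratio of members. MYC per MAX, per kilobase of exon, was 0.758 and 0.738 in the FB23-2 libraries, against 3.82 and 4.06 in the control libraries. The summed repressors (MXD1, MXD3, MXD4, MXI1, MNT and MGA) per MAX were 1.59 and 1.73 with FB23-2, against 0.952 and 1.07 in control. Put together, the 3 MYC paralogs per summed repressors stood at 0.537 ± 0.044 with FB23-2 and 4.11 ± 0.178 in control (SD, n = 2 each), a 7.66-fold difference of means. In every FB23-2 library the repressor transcripts outweighed the MYC paralogs, and in every control library the paralogs outweighed the repressors. These ratios were not tested, and they describe RNA, not protein or dimers. Their size depends on the length used: by coding length MYC per MAX was 0.219 with FB23-2 and 1.15 in control.

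**Figure D3:**
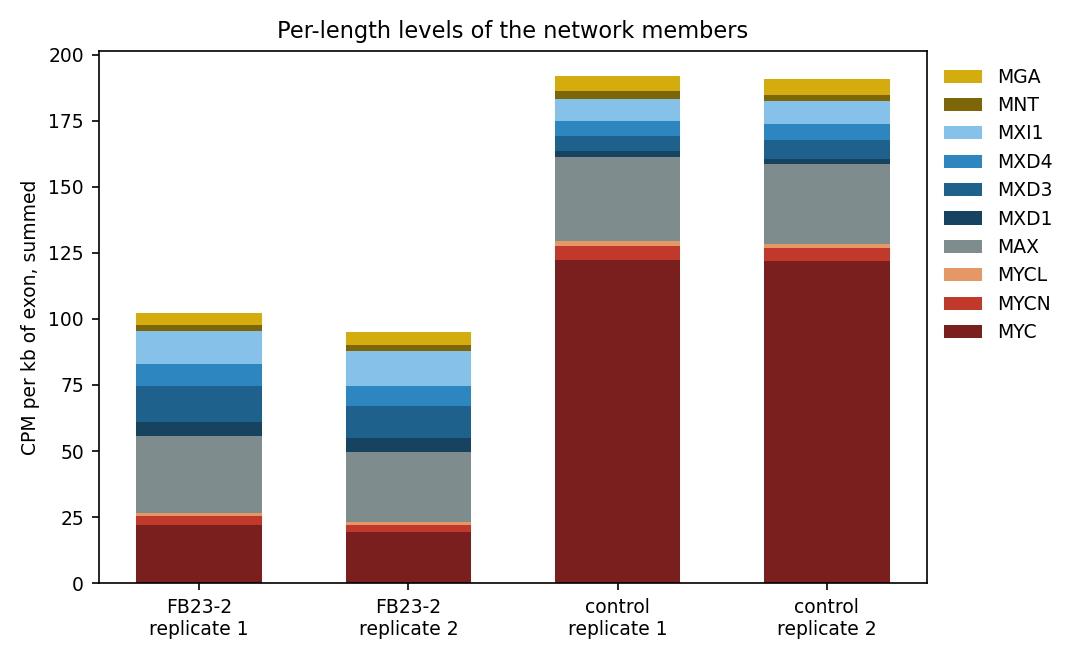
CPM per kilobase of exon for each member, stacked by library from 0 (FB23-2 libraries left, control libraries right). MYC (dark red) is a smaller block than MAX (grey) with FB23-2 and the largest block in control, and the blue blocks of the MXD family are taller with FB23-2.

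Few genes around MYC on chromosome 8 were expressed. PVT1, the non-coding RNA gene next to MYC, fell to 1.39 and 1.27 CPM with FB23-2, against 3.20 and 4.10 CPM in control (-1.48 ± 0.27, edgeR adjusted p = 0.00177). CASC11, which lies on the other side of MYC, had 8 and 2 counts with FB23-2, against 4 and 10 in control, and was not tested. Within 1 Mb of MYC, 3 of 22 annotated genes were tested, and CCDC26, a long non-coding RNA gene, was the third: it had 5 and 6 counts with FB23-2, against 18 and 28 in control (-2.35 ± 0.56, edgeR adjusted p = 0.00754). The call of CCDC26 was lost without control replicate 2 (0.0737, the alternatives spanning 0.00688 to 0.0737). That window was chosen after its values were seen. At MYCN, the antisense gene MYCNOS had 13 and 9 counts with FB23-2, against 33 and 30 in control (-1.82 ± 0.49, edgeR adjusted p = 0.0141). It shares 98 exon bases with MYCN, and its call was lost without FB23-2 replicate 2 (0.0711) or control replicate 1 (0.106), with alternatives from 0.00988 to 0.118. MYCBP, a MYC-binding protein gene, fell too (-0.39 ± 0.06), but 32.1% of its exon bases belong also to a read-through gene. That gene had 0.34 CPM or less in each library.

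SIN3 and HDAC corepressor genes encode the complex that MXD proteins bring to DNA. They were higher in 9 of 17 cases and lower in 2. Of all tested genes 21.8% were higher and 20.3% lower (30.1% and 26.5% at 5 CPM or more). The list median was a log2 fold change of 0.21, against 0.00 over all tested genes. With 1 library left out the list median was 0.15 to 0.24. With upper quartile scaling 8 were higher and 5 lower, and by library size alone 11 and 2. Against a 1.5-fold change 0 of the 17 passed. The scaffold gene SIN3A stood at 136 and 133 CPM with FB23-2, against 114 and 111 CPM in control (0.25 ± 0.05), and the complex subunit genes BRMS1L (0.64 ± 0.10), ARID4A (0.48 ± 0.06) and ARID4B (0.45 ± 0.05) rose most. SIN3B, a second scaffold gene (-0.14 ± 0.06, 95% interval -0.27 to -0.0028), and the deacetylase gene HDAC1 (0.08 ± 0.04, 95% interval -0.02 to 0.18) did not pass, although SIN3B passed with upper quartile scaling or a minimum count of 50 and HDAC1 by library size alone. The deacetylase HDAC2 (-0.32 ± 0.04) and the histone chaperone RBBP7 (-0.17 ± 0.04) fell, RBBP7 with an adjusted p of 0.0737 without control replicate 2 (0.00187 to 1 across alternatives). ARID4B shares 14.5% of its exon bases with RBM34 on the same strand. SIN3A, SIN3B and HDAC1 are outside the rule for named genes and are given for their roles.

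Partners of MGA in its Polycomb complex had 4 genes lower and 1 higher of 11, a share called of 45.5%, beside 42.1% of all tested genes and 56.6% of those at 5 CPM or more. L3MBTL2, a methyl-lysine reader of that complex, was lowest, at 29.6 and 27.7 CPM with FB23-2, against 49.8 and 45.5 CPM in control (-0.73 ± 0.08). WDR5 (-0.39 ± 0.05) and CBX3 (-0.34 ± 0.05) fell and RYBP (0.62 ± 0.05) rose, and the highest value, that of RING1 (0.71 ± 0.26), did not pass. RING1 had 17.8 and 16.1 CPM with FB23-2, against 6.93 and 12.9 CPM in control, and passed without control replicate 2 (edgeR adjusted p = 0.0021) and with DESeq2, with limma-voom or without robust dispersion. PCGF6, the subunit that defines the complex, stood at 34.1 and 29.6 CPM with FB23-2, against 32.3 and 29.6 CPM in control (0.05 ± 0.09). L3MBTL2 shares 14.5% of its exon bases with an antisense gene. That gene had 1.86 and 2.83 CPM with FB23-2, against 0.581 and 0.436 CPM in control. CBX3 has processed pseudogenes. Reads could be shared in both cases, so both are uncertain.

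Coactivators of MYC moved both ways, with 8 higher and 7 lower of 20 and a median of 0.07, where 42.1% of all tested genes and 56.6% of those at 5 CPM or more were changed. With FB23-2 replicate 1 left out, 4 were higher and 7 lower. The ATPases RUVBL1 (-0.76 ± 0.06) and RUVBL2 (-0.55 ± 0.05) and the acetyltransferase KAT2A (-0.58 ± 0.06) fell. CDK9, the kinase that releases paused RNA polymerase II (0.44 ± 0.06), the TIP60 complex gene DMAP1 (0.41 ± 0.06) and the acetyltransferase CREBBP (0.38 ± 0.05) rose. RUVBL1 stood at 47.6 and 44.7 CPM with FB23-2, against 79.1 and 77.6 CPM in control, with no overlap.

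Genes that act on MYC protein stability were higher in 11 of 22 cases and lower in 5, with a median of 0.14. Of all tested genes 21.8% were higher and 20.3% lower (30.1% and 26.5% at 5 CPM or more). The split depended on the setting. With upper quartile scaling 7 were higher and 5 lower, with no low-count filter 7 and 4, and by library size alone 12 and 5. SKP2, a ubiquitin ligase subunit, fell to 80.1 and 83.3 CPM with FB23-2, against 130 and 137 CPM in control (-0.71 ± 0.05), as did the nucleolar deubiquitinase USP36 (-0.45 ± 0.06) and SET (-0.24 ± 0.04), an inhibitor of the phosphatase PP2A with processed pseudogenes. CIP2A, another PP2A inhibitor known to protect MYC (0.55 ± 0.06), and the ligase adaptor TRPC4AP (0.43 ± 0.04) rose. PIM1 (0.50 ± 0.13) passed, but had adjusted p values of 0.0758 without FB23-2 replicate 2, 0.0545 without control replicate 1 and 0.0969 without control replicate 2 (range 0.00476 to 1). Of the list, 10 members were called without FB23-2 replicate 2 and 9 without control replicate 1, against 16 with all libraries. The list holds genes that stabilise and genes that destroy MYC, so its direction says nothing of the protein.

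Genes for RNA-binding proteins known to act on MYC mRNA or on AU-rich or m6A-marked mRNA had 7 genes lower and 2 higher of 20, and their 45.0% called compares with 42.1% of all tested genes and 56.6% of those at 5 CPM or more. With control replicate 2 left out, 4 were lower. ZFP36L1, which promotes decay of AU-rich mRNA, rose to 75.8 and 72.0 CPM with FB23-2, against 39.0 and 34.5 CPM in control (1.02 ± 0.07, edgeR adjusted p = 7.27e-06), and RBM38 (0.51 ± 0.06) rose. ZFP36L2, the paralog of ZFP36L1 (-0.51 ± 0.05) fell, as did HNRNPD (-0.45 ± 0.04) and HNRNPK (-0.27 ± 0.04). HNRNPK has processed pseudogenes, and RBM38 shares 12.6% of its exon bases with an antisense gene.

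Regulators of MYC transcription were changed in 21 of 24 cases, 12 lower and 9 higher, where 42.1% of all tested genes and 56.6% of those at 5 CPM or more were changed. With FB23-2 replicate 1 left out 5 were higher, and with control replicate 2 left out also 5. STAT5A (-1.35 ± 0.21), BRD2, a BET bromodomain gene (-0.90 ± 0.09), and the HMG-box factor TCF7 (-0.75 ± 0.04) fell, and LEF1 (0.63 ± 0.03), GATA3 (0.62 ± 0.05) and STAT3 (0.46 ± 0.04) rose. TCF7 and LEF1, which bind like sites, stood apart in direction: TCF7 had 268 and 272 CPM with FB23-2, against 459 and 452 CPM in control, and LEF1 had 950 and 937 CPM with FB23-2, against 606 and 617 CPM in control. NOTCH1, named here for its known role upstream of MYC and outside the rule, had 72.6 and 71.3 CPM with FB23-2, against 96.3 and 103 CPM in control (-0.47 ± 0.06).

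Genes that MYC is known to induce were lower in 24 of 32, beside 20.3% of all tested genes (26.5% at 5 CPM or more). They were higher in 5 cases, beside 21.8% (30.1% at 5 CPM or more), for a list median of -0.52. The count higher was 2 when FB23-2 replicate 1 was left out, 2 when control replicate 1 was and 3 when control replicate 2 was. TERT, the telomerase catalytic subunit, had 4.29 and 5.04 CPM with FB23-2, against 13.5 and 15.5 CPM in control (-1.65 ± 0.15), and the nucleolar gene NOLC1 (-1.21 ± 0.05) fell. The translation helicase gene EIF4A1 (-1.26 ± 0.05) is uncertain, since 41.1% and 29.8% of its exon bases belong also to 2 overlapping genes. The transferrin receptor gene TFRC (0.65 ± 0.03) and E2F2 (0.53 ± 0.05) rose. SLC1A5 (0.19 ± 0.06) passed, but without FB23-2 replicate 1 its adjusted p was 0.229 and without control replicate 1 it was 0.251 (0.00795 to 1 across alternatives). It shares 23.4% of its exon bases with an antisense gene of under 1 CPM.

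Genes that MYC is known to repress were higher in 16 of 24 cases (66.7%), beside 21.8% of all tested genes. They were lower in 2, beside 20.3%, for a list median of 0.48. At 5 CPM or more, 30.1% of tested genes were higher and 26.5% lower. TP53INP1, a p53-responsive stress gene (1.54 ± 0.08), the stress factor ATF3 (1.29 ± 0.09) and the antiproliferative gene BTG1 (1.11 ± 0.06) were highest, and BTG1 had 101 and 94.3 CPM with FB23-2, against 43.6 and 46.3 CPM in control. The phosphatase gene DUSP2 fell (-1.15 ± 0.13). GADD45B (-0.51 ± 0.17, edgeR adjusted p = 0.0403) lost its call when FB23-2 replicate 2 was left out (0.203), as with control replicate 1 (0.186) and 2 (0.0712) and under 6 other alternatives. Over all 14 alternatives its adjusted p spanned 0.0171 to 1. Both target lists were chosen with MYC's own fall known, and many of their genes have other regulators.

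**Figure D4:**
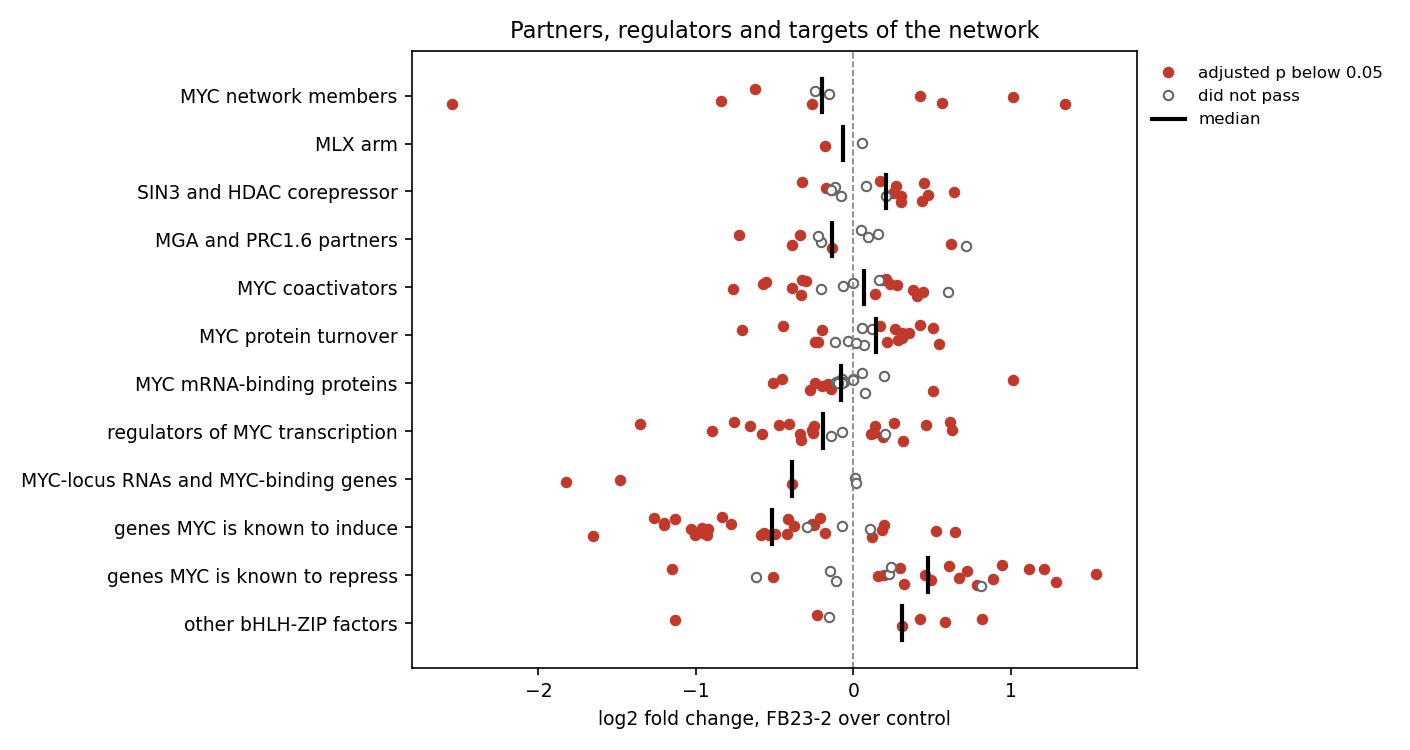
Log2 fold change of FB23-2 over control for every tested gene of each list, red where the adjusted p was below 0.05, with a black bar at the list median. Genes that MYC is known to induce centre at -0.52 and genes that it is known to repress at 0.48, while coactivators (0.07) and MYC mRNA-binding proteins (-0.08) centre near 0.

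A parallel branch of the network, in which MLX takes the place of MAX, had 1 of 2 tested genes lower. MLX had 85.2 and 82.1 CPM with FB23-2, against 96.8 and 93.1 CPM in control (-0.18 ± 0.05, edgeR adjusted p = 0.0204), a call lost when FB23-2 replicate 2 was left out (0.108), as with control replicate 1 (0.1) and 2 (0.0618) and under 3 other alternatives. Over all 14 alternatives the adjusted p of MLX spanned 0.00742 to 1. MLX shares 18.1% of its exon bases with PSMC3IP on the opposite strand. MLXIP, its nutrient-sensing partner, had 149 and 155 CPM with FB23-2, against 144 and 148 CPM in control (0.05 ± 0.05), and MLXIPL had 0 counts in all libraries. Among other factors with the same type of DNA-binding domain, 4 of 7 were higher and 2 lower, beside 21.8% and 20.3% of all tested genes (30.1% and 26.5% at 5 CPM or more). TFE3 (0.82 ± 0.08) and TFEB (0.58 ± 0.11), which drive lysosome genes, and SREBF2 (0.43 ± 0.04) rose, while TFAP4 (-1.13 ± 0.12), itself a known MYC target, and SREBF1 (-0.23 ± 0.05) fell. SREBF1 did not pass without control replicate 2 (0.0856, range 0.0013 to 1).

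The genes most like MYC over the 4 libraries, by Euclidean distance of centred log2 CPM among 11025 named genes at a mean of 5 CPM or more, were IGLL1, HNRNPA1P21, CCR8, SNHG3 and APLN. IGLL1, the surrogate light chain gene of early B cells, had 15.5 and 14.1 CPM with FB23-2, against 86.6 and 93.4 CPM in control, at a distance of 0.101. The pseudogene HNRNPA1P21 could share reads with other HNRNPA1 copies, and it lies beside CCR8 on chromosome 3. The genes most like MXD1 were FOXD4L1, SLFN5, ABCA7, PIP4P2 and ATF3. SLFN5, a gene of the Schlafen family, had 164 and 166 CPM with FB23-2, against 66.9 and 63.8 CPM in control. FOXD4L1 belongs to a family of near-identical copies and is uncertain. With 2 groups of 2, likeness means a like fold change and a like small spread.

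Library totals were 37804516 and 33983246 counts with FB23-2, against 24615359 and 34897961 in control, so 3 counts correspond to 0.0794 to 0.122 CPM. All 15 Jurkat T-cell markers were detected, summing to 1995 to 2062 CPM with FB23-2 and 2428 to 2445 CPM in control. Markers of myeloid and natural killer cells were low. The 8 myeloid markers summed to 3.43 to 3.55 CPM with FB23-2 and 2.82 to 3.86 CPM in control, and the 5 natural killer markers to 6.52 to 6.92 CPM with FB23-2 and 4.03 to 4.59 CPM in control. Of these, KLRF1 was at 0 throughout. The B-cell list, mostly CD79A, summed to 48.5 to 49.7 CPM with FB23-2 and 44.5 to 50.1 CPM in control. The stromal and epithelial list, mostly PECAM1, summed to 61.0 to 66.1 CPM with FB23-2 and 117 to 120 CPM in control. Whether these differences have a part in the results was not tested.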

How the data were processed

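The labels' protocols describe 2 independent biological replicates per group, total RNA extracted with Trizol and libraries made with an Illumina TruSeq RNA kit. The authors deposited whole-number counts per Ensembl gene ID for all 4 libraries in 1 table, with no normalization. The submitters' processing notes list HISAT2 2.2.0, StringTie and hg38. Which annotation was counted, how, and whether by strand is not given in the sources used here, so overlapping genes cannot be told apart.

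Symbols were matched by Ensembl ID, 486 of them through GENCODE release 29. Coordinates, exon lengths and overlaps came from GENCODE release 29 on the same build. Genes were kept by filterByExpr (minimum count 10), scaled by TMM, fitted across all genes with glmQLFit (robust) and tested with glmQLFTest in edgeR 4.0.16 (R 4.3.3). P values were adjusted by Benjamini-Hochberg over the 18817 tested genes, with a threshold of 0.05. The SE is the absolute log2 fold change over the square root of F, and intervals are 95%. The biological coefficient of variation was 10.5%. Chi-square per degree of freedom was 6.69 and 7.48 between replicates and at least 74.6 between groups, so no 2 libraries were within sampling noise of each other. The fit was tested on simulated data with known changes, 50 genes at each size. It recovered 92% of 4-fold, 72% of 2-fold, 62% of 1.5-fold and 24% of 1.25-fold changes, so small changes were often missed. It also called 15 unchanged genes. Alternatives used limma 3.58.1 and DESeq2 1.42.0, and the closing section gives their effect. Counts and floors cover counting error only.

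Members, lists and tests were chosen with earlier results of these data known. The rule for named genes took all members and, from each list, up to 3 of the highest and 3 of the lowest called log2 fold changes at a mean of 5 CPM or more. Likeness took 5 genes each for MYC and for the member with the highest called change. Other genes named were chosen after their values were seen. Sequences came from RefSeq. One list of cell type markers is not reported here.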

Additional observations from a re-analysis of the deposited data

How the results depend on the processing

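Each of the 10 members kept its direction under all 14 alternatives: of 140 values, 129 kept their side of the threshold, 6 lost their call, 5 gained one and 0 reversed. Of 991 values for the other named genes, 71 lost their call, 7 gained one and 2 reversed, both of PCGF6, which passed in none of them: leaving out FB23-2 replicate 1 gave a log2 fold change of -0.0754, control replicate 2 gave -0.0154, and values went up to 0.147 with another library left out. Against a 1.5-fold change, 3 members (MYC, MXD1 and MXD3), 28 genes of the other lists and 1112 of all tested genes (5.91%) passed. That test asks for a larger change by its construction. Leaving out 1 library gave 7 to 9 members called, 104 to 114 list genes and 5647 to 6596 of all genes, in place of 8, 130 and 7919. Same-numbered libraries had deviations from their group means that correlated at 0.0623, so the numbers were not taken to pair them. A fit with a replicate block called 9 members, 137 list genes and 8268 genes in all. No scaling moved the median of all genes by more than 0.0466 (log2).

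Ratios of members depend on the length used. MYC per MAX was 0.676 with FB23-2 and 3.56 in control by longest transcript, and 0.219 with FB23-2 and 1.15 in control by coding length. Summed repressors per MAX were 1.93 with FB23-2 and 1.14 in control by longest transcript, and 1.97 with FB23-2 and 1.12 in control by coding length. MYC paralogs per repressors were 0.41 with FB23-2 and 3.28 in control by longest transcript, and 0.148 with FB23-2 and 1.13 in control by coding length. Library size scaling leaves them as they are. Leaving out 1 library gave the other library's ratio. The depth limits MYCN and MYCL, the members with the fewest counts, whose SE of 0.15 is the largest of the 10.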
